A study of Mus musculus with 34 samples.

Results

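Epiblast stem cells (EpiSC) were set against aggregates of differentiating embryonic stem cells on day 5, the day on which T, the primitive streak marker, had its highest mean in these aggregates. The comparison used 6 of the 34 mouse RNA-seq libraries of the series, chosen by their labels: 3 of EpiSC and 3 of day 5 aggregates. The EpiSC were 1 female line, EpiSC7, on the strain background C57BL6, grown on mouse embryonic fibroblast (MEF) feeders in medium with Activin and FGF, and taken at passage 6 (replicates 1 and 3) and passage 7 (replicate 2). The aggregates came from the female CBMS1 line, a CBA/MsM hybrid, kept as stem cells in 2i/LIF, converted over 2 days to epiblast-like cells and then aggregated for 3 days at 2000 cells per well in a plain serum replacement medium (GK15) with no factor added, a regime that ends in neurectoderm by day 7. All 6 cultures were unmodified in genotype as far as the labels say. The titles end in a number written like a date, without saying what it dates; it differs between the groups, among the day 5 libraries, and between EpiSC replicate 3 and the other EpiSC libraries. Line, strain, medium, feeders and this number all differ with the group, so their parts in any difference below cannot be told apart.

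The remaining 22 libraries of the CBMS1 course (days 0, 2, 3, 4, 6 and 7) and 6 MEF libraries served as reference levels. The 22 course libraries also entered the limma fit, so they share in the spread behind every p-value of the main fit. In that fit adjusted p (limma) was 4.91e-17 for Gal, 6.03e-07 for Foxa2 and 4.34e-05 for Lefty1. When only the 2 groups entered the model, it was 5.8e-05, 0.0177 and 0.0495. The fibroblasts came from 12.5-day C57BL6 embryos, in 2 cultures at 3 passages each, and the feeders that lay under the EpiSC were not analysed here. Labels call the libraries biological replicates without naming separate cultures, so p-values measure only the spread within the groups of the fit, which may be technical. Day 5 replicate 1 bears another project number than the other 5 libraries, and its cell type field names day 4 where its title and source name say day 5; the title and source name were followed, and its streak transcripts were at day 5 levels. Values were FPKM, fragments scaled to transcript length and library size. Correlations of log2(FPKM + 1) over genes ran from 0.958 to 0.978 among EpiSC libraries, from 0.975 to 0.983 among day 5 libraries and from 0.88 to 0.92 between the groups, and relative depth ranged from 0.914 to 1.12.

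EpiSC are derived from the epiblast after implantation and are called primed: they keep the pluripotency factors Pou5f1, Nanog and Sox2, have shut off the genes of naive stem cells, and need Activin/Nodal and FGF from outside to remain as they are. The primitive streak forms in the posterior epiblast where Wnt3, Nodal and FGF signals meet. Epiblast cells there switch on T (Brachyury) and leave the epithelium as mesoderm or endoderm, while the front of the streak gives the node and notochord, and its late posterior part gives the presomitic mesoderm and the progenitors of the trunk.

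The result is represented by 5 sequences, 1 for each of the streak, node, presomitic, posterior and Wnt target lists: the promoter of the member that lay furthest below day 5 in EpiSC. Each runs from 250 bases before to 50 after the start of the gene, 5′ to 3′ on the gene's strand, from RefSeq on GRCm38.p6. Capitals mark the Tcf/Lef motif CTTTGAA or CTTTGAT on either strand, the letters read by the factors that carry Wnt signals to DNA. Positions are chr17:8434173-8434472 (plus strand) for T, chr6:85423636-85423935 (plus) for Noto, chr12:11208899-11209198 (minus) for Msgn1, chr5:147307200-147307499 (minus) for Cdx2 and chr2:70474673-70474972 (plus) for Sp5.
T: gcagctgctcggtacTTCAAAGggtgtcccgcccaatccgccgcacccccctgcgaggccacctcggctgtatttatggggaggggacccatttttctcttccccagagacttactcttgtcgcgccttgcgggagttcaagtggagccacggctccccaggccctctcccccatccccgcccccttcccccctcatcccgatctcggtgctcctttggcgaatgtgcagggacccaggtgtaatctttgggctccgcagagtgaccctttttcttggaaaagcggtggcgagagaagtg
Noto: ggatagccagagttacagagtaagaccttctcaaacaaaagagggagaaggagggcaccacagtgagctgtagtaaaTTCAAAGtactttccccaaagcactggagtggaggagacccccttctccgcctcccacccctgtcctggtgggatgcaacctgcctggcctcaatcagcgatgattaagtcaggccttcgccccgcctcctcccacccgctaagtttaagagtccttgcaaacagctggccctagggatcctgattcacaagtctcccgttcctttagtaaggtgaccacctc
Msgn1: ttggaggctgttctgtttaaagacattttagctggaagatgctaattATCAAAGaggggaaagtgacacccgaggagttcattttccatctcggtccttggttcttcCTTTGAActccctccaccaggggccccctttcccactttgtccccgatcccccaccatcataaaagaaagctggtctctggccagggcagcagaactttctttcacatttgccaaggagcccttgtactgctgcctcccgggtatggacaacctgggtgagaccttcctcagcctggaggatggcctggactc
Cdx2: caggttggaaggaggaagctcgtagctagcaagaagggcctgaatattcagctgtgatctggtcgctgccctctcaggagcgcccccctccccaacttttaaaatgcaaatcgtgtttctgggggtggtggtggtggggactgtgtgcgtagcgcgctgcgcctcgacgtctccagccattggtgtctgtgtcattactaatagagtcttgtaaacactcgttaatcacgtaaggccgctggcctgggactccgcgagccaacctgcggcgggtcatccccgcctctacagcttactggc
Sp5: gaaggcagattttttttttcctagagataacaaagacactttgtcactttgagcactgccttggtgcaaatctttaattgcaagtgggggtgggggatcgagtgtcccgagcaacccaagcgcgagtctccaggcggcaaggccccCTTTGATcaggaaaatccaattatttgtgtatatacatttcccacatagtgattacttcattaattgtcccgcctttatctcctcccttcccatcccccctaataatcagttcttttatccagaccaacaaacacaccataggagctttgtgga
The motif began 235 bases before the start of T, 173 before that of Noto, 203 and 143 before that of Msgn1, and 104 before that of Sp5, and the Cdx2 window held none. Of the 48 genes called lower in these 5 lists, 30 had a promoter in the table, and 6 of the 30 (20%) held the motif, against 9.88% of all 27025 genes with a promoter. The T-box motif TCACACC, searched on both strands, was in 1 of the 30 (3.33%) and in 4.6% of all genes. A match describes letters in a window and is not a measured site.

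EpiSC had lower levels of 7 of 12 streak, 12 of 13 node, 8 of 12 presomitic and 12 of 16 posterior transcripts than the day 5 aggregates, and higher levels of Pou5f1, Nanog, Sox2 and Otx2. Of 17 Nodal and Activin genes 5 were higher in EpiSC (Lefty1, Lefty2 and Smad7 among them) and 3 lower (Cer1, Fst and Cfc1), and most Wnt target and ERK feedback transcripts were lower. Of 14009 genes tested, 904 were higher in EpiSC (6.45%) and 1022 lower (7.3%), where a call needed a limma p under 0.05 after Benjamini-Hochberg adjustment and a change of 1 or more in log2(FPKM + 1). That scale understates the change of low genes, and every difference below is EpiSC minus day 5 on it. The median difference over all genes tested was −0.03. EpiSC and day 5 libraries did not overlap in 6565 genes (46.9%). In bulk samples, fewer cells of a type and less RNA per cell cannot be told apart.

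**Figure D1:**
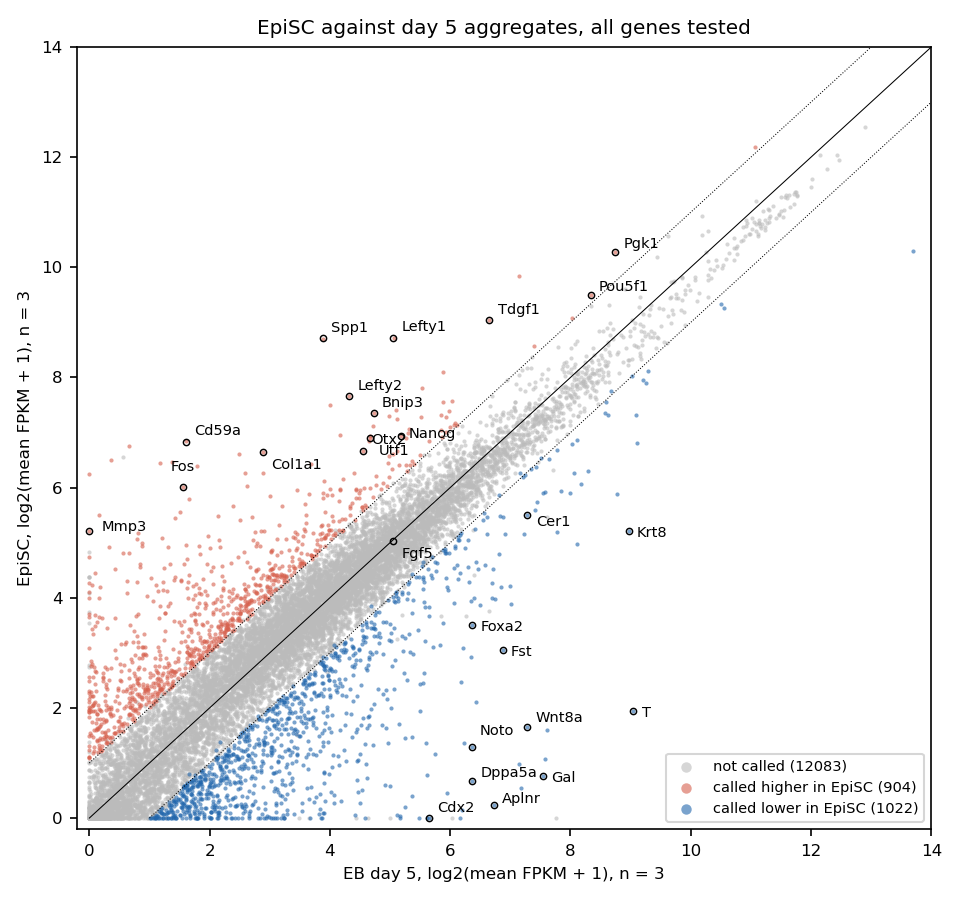
All 14009 genes tested, with the day 5 mean on the x axis and the EpiSC mean on the y axis, both as log2(mean FPKM + 1) of 3 libraries; red points are the 904 genes called higher in EpiSC, blue points the 1022 called lower, and dotted lines mark a difference of 1. T, Gal, Aplnr and Cdx2 lie near the bottom at high day 5 levels, Lefty1, Spp1 and Cd59a lie far above the diagonal, and Fgf5 lies on it.

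T, the T-box factor that marks the streak and notochord, had the largest difference of the 14009 genes. T transcripts (chr17:8627288-8635361 in mm9, the build of the deposited table) stood at 6.65, 1.57 and 0.401 FPKM in EpiSC replicates 1, 2 and 3 and at 388, 621 and 575 FPKM in the day 5 libraries. The groups were far apart, and EpiSC replicate 1 held the most among EpiSC. The difference was −7.42 (SE 0.45, limma, adjusted p = 6.04e-13), and EpiSC levels of 2.87 ± 3.32 FPKM (SD, n = 3) compared with 2.53 ± 0.864 FPKM in CBMS1 cells on day 2 (SD, n = 5). Without EpiSC replicate 1 the difference was −8.10. Of 12 streak and early mesoderm genes tested, 7 were lower, 1 was higher and 4 were not called, with a median of −1.32. Fgf8, a streak ligand, was at 31.8, 18.9 and 2.27 FPKM in EpiSC against 130, 118 and 131 FPKM on day 5, with EpiSC replicate 3 the lowest (−3.31, limma, adjusted p = 8.92e-06). The Fgf8 difference was −2.32 without EpiSC replicate 3 and −3.98 without EpiSC replicate 1. Mixl1, a homeobox factor of the streak, fell from 14.9, 20.8 and 10.5 FPKM on day 5 to 2.3, 0.271 and 0.148 FPKM in EpiSC (−3.23, limma, adjusted p = 9.55e-09). Lhx1, Evx1, Gata4 and Wnt3 were lower by differences of −3.01 to −1.22. The 1 higher member was Lefty2, a Nodal antagonist described with its pathway below.

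Neither Eomes nor Gsc passed. Eomes, a T-box factor of the early streak, was at 10.8, 4.06 and 2.94 FPKM in EpiSC and 8.3, 13.1 and 6.76 FPKM on day 5, so the groups overlapped (−0.70, limma, adjusted p = 0.0238). Gsc, of the anterior streak, was at 14.2, 11.9 and 4.1 FPKM in EpiSC and 14.6, 27 and 14.2 FPKM on day 5 (−0.91, limma, adjusted p = 0.0601). In the CBMS1 course Eomes peaked a day earlier, at 50.6 ± 2.2 FPKM on day 4 (SD, n = 3). Mesp1 and Hand1, of later mesoderm, were below the filter on low values. The day 5 aggregates held streak markers together with node, presomitic, posterior and early neural ones, as the values below show.

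The node and notochord list had the largest share of members lower among the 36 lists: 12 of 13 tested, none higher, and a median of −2.68. Noto, the homeobox factor of the node and early notochord, was at 4.19, 0.116 and 0 FPKM in EpiSC, where replicate 3 was listed at 0, and at 39.4, 85 and 119 FPKM on day 5 (−5.38, SE 0.42, limma, adjusted p = 8.66e-11). Foxa2, a forkhead factor of anterior streak, node and endoderm, was at 23.1, 5.93 and 2.03 FPKM in EpiSC and at 54.4, 96.8 and 93.6 FPKM on day 5. Foxa2 was detected in each EpiSC library, highest in replicate 1, and below every day 5 library (−3.33, limma, adjusted p = 6.03e-07). Shh, the ligand secreted by notochord and floor plate, was at 1.3, 1.44 and 0.387 FPKM in EpiSC and 8.07, 18.9 and 27.9 FPKM on day 5 (−3.13, limma, adjusted p = 2.06e-08). Nog and Chrd, secreted BMP antagonists of the node, were lower by −3.59 and −1.36. Foxj1, the master factor of motile cilia, was called although its groups overlapped (−2.68, limma, adjusted p = 0.000176). EpiSC replicate 1 had 33.4 FPKM of Foxj1, above day 5 replicate 1 at 32.1 FPKM. Chrd overlapped in the same way, with EpiSC replicate 1 above day 5 replicate 1. The Chrd difference was −1.77 without EpiSC replicate 1 and −1.76 without day 5 replicate 1. Without EpiSC replicate 1 the differences were −6.14 for Noto, −4.12 for Foxa2 and −3.48 for Foxj1, and without EpiSC replicate 3 that of Foxa2 was −2.63.

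Node cells carry motile cilia, and 8 of 13 tested cilia genes were lower, none higher, with a median of −1.59. Tekt1, a tektin of the axoneme, was at 5.72, 1.53 and 0.624 FPKM in EpiSC and at 10.4, 34.9 and 27.3 FPKM on day 5 (−2.90, limma, adjusted p = 3.54e-07). Spag6, of the central apparatus, and Tekt4 differed by −3.06 and −2.71. In the CBMS1 course 11 of the 13 had their highest mean on day 5, as did 9.77% of all genes tested. EpiSC replicate 1 again had the highest EpiSC level of Tekt1, Tekt4 and Spag6, as it had of T, Noto, Foxa2 and Foxj1.

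**Figure D2:**
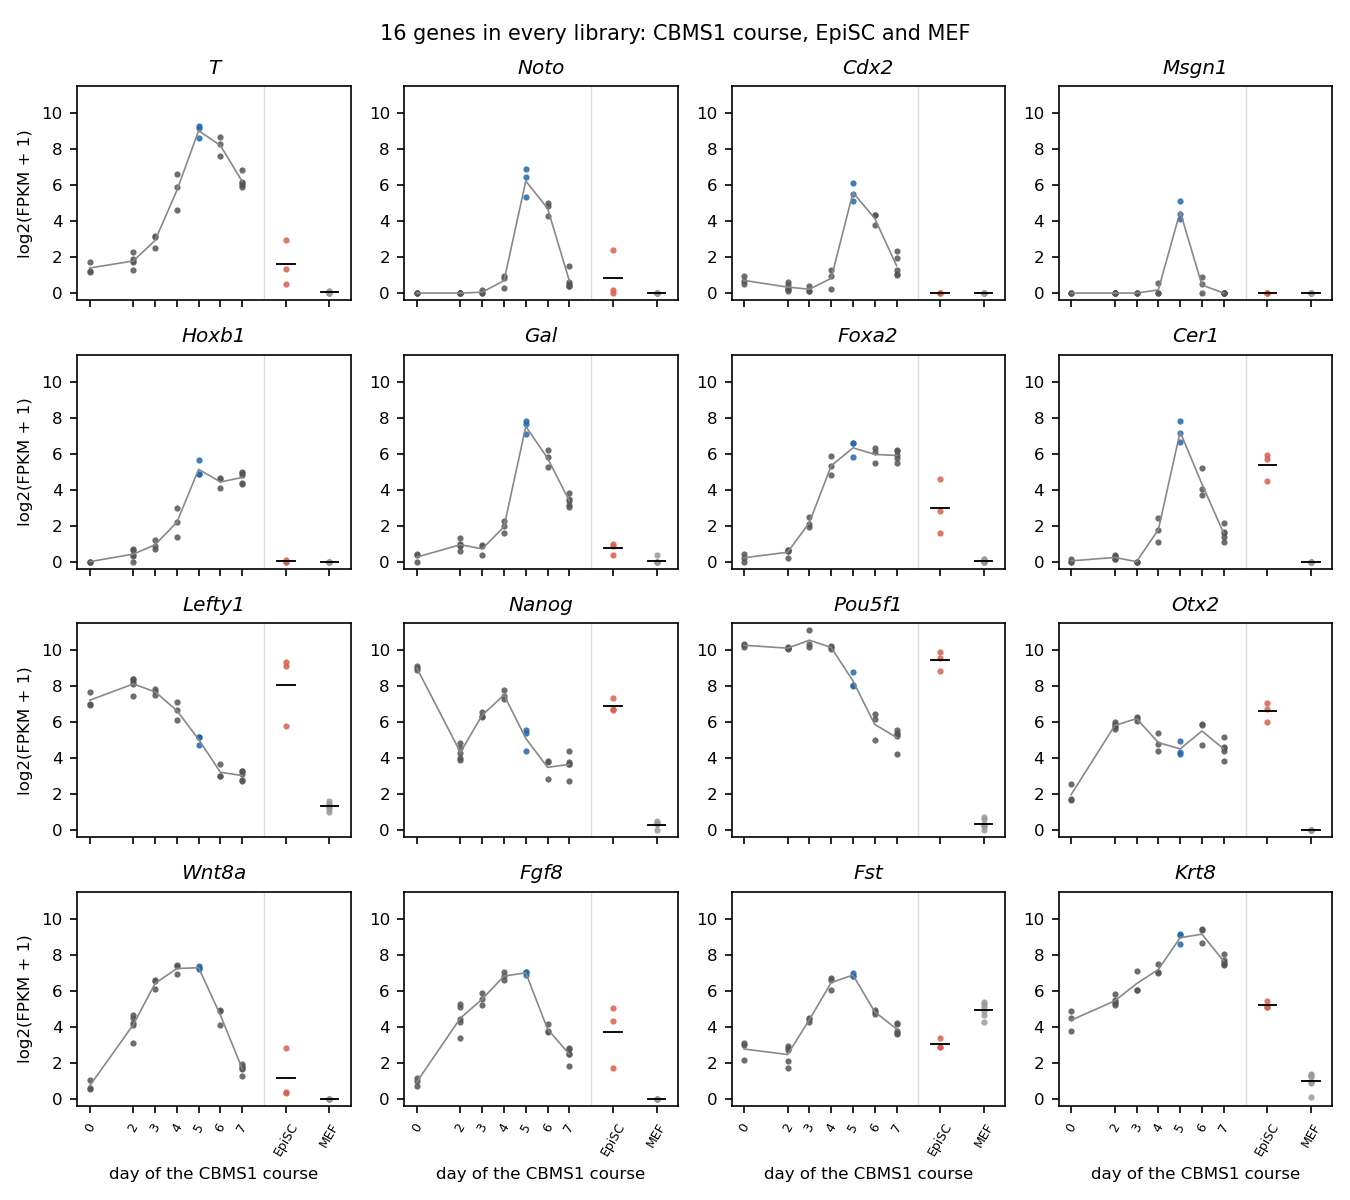
Levels of 16 genes in every library as log2(FPKM + 1): days 0 to 7 of the CBMS1 course with a line through the means (day 5 in blue), then EpiSC (red) and MEF (light grey) with bars at the means. T, Noto, Msgn1, Gal and Cer1 peak on day 5; EpiSC levels of Cdx2, Msgn1 and Hoxb1 are at or near 0, those of T and Noto are far below day 5, and Cer1 and Foxa2 lie between the day 4 or day 5 level and 0.

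Endoderm genes were lower in 7 of 12 tested, and none was higher (median −1.47). Cer1, which encodes a secreted antagonist of Nodal, BMP and Wnt made by anterior endoderm, was the most abundant of them in EpiSC, at 52, 59.3 and 21.1 FPKM against 100, 222 and 142 FPKM on day 5 (−1.84, limma, adjusted p = 0.000179). Both group means stood above those of every other day of the course, where Cer1 averaged at most 21.1 ± 12.6 FPKM (SD, n = 3, day 6). EpiSC and day 6 libraries overlapped, since EpiSC replicate 3 lay below day 6 replicate 1 at 35.5 FPKM. Sox17, the defining endoderm factor, was at 1.61, 1.45 and 0.636 FPKM in EpiSC and 10.3, 15.7 and 10.6 FPKM on day 5 (−2.57, limma, adjusted p = 7.82e-12). Epha2, Cldn4 and Cxcr4 differed by −2.59, −2.23 and −2.12.

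Presomitic and posterior genes included Msgn1 and Cdx2, both listed at 0 in every EpiSC library. Msgn1, a factor of the presomitic mesoderm, stood at 16.2, 19.7 and 33.4 FPKM on day 5, which was its only day above 1 FPKM on average. Cdx2, the caudal homeobox factor that sets up trunk Hox genes, stood at 34.2, 43.5 and 69 FPKM on day 5. Both were called lower (limma, adjusted p = 3.95e-16 for Msgn1 and 4.66e-14 for Cdx2). Of 12 presomitic genes tested 8 were lower and none higher (median −1.61), among them Rspo3, a Wnt amplifier, at −3.97, and the segmentation factors Tbx6 and Hes7 at −2.83 and −2.78. Of 16 posterior genes 12 were lower and none higher (median −2.67). Hoxb1 was at 0.0798, 0 and 0 FPKM in EpiSC against 28, 28.6 and 48.6 FPKM on day 5, with no overlap (−5.09, limma, adjusted p = 1.36e-13), and Hoxb2 and Nkx1-2 differed by −5.04 and −4.98. Hoxa2, picked out after its values were seen, moved with them at −3.72.

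Gal and Aplnr were among the genes outside the lists with the largest differences; others, named as predicted genes or copies, are given at the end. Gal, which encodes the neuropeptide galanin, was at 0.854, 0.296 and 0.964 FPKM in EpiSC and at 135, 221 and 200 FPKM on day 5, with no overlap (−6.76, SE 0.25, limma, adjusted p = 4.91e-17). Aplnr, the apelin receptor of early mesoderm, was at 0.437, 0.0511 and 0.0417 FPKM in EpiSC and 78.4, 98.9 and 138 FPKM on day 5 (−6.47, SE 0.22, limma, adjusted p = 1.03e-17). Arg1, the arginase of the urea cycle, differed by −5.99. Gbx2, a homeobox factor of the hindbrain boundary picked out after its values were seen, was listed at 0 in EpiSC replicates 2 and 3 and averaged 36.8 ± 3.69 FPKM on day 5 (SD, n = 3).

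Of 20 neural progenitor genes 8 were lower and 1 higher (median −0.72): Fabp7, a lipid carrier known from radial glia, was at 2.71, 2.55 and 0 FPKM in EpiSC against 35, 41.5 and 34.5 FPKM on day 5 (−4.00, or −3.38 without EpiSC replicate 3, where it was listed at 0; limma, adjusted p = 2.69e-10). Olig3 and Irx3 differed by −3.85 and −2.90. Sox1, the earliest neural plate marker, differed by −2.06, while Pax6 averaged under 1 FPKM in both groups and was not called. The higher one was Hesx1, an anterior neural factor, at 1.19, 1.72 and 21.4 FPKM in EpiSC. Its difference of 1.79 was 0.72 and not called without replicate 3, and 2.40 without replicate 1. Hesx1 was also not called when only the 2 groups entered the model (limma, adjusted p = 0.161). The same held with only the libraries of the project without day 5 replicate 1 (limma, adjusted p = 0.113). Among 14 neuron genes Stmn2 alone was called, as higher, and without EpiSC replicate 1 another was called lower. Of 11 blood and endothelial genes 3 were lower, Etv2, Gata1 and Kdr, and Kdr did not reach 1 FPKM in 3 of the 6 libraries. Of 13 surface ectoderm and neural crest genes 7 were tested and 4 were lower, the keratins Krt8 and Krt18 among them. Tfap2a, Tfap2b, Sox10, Dlx3, Dlx5 and Krt14 were below the filter on low values. Of 7 visceral endoderm and trophoblast genes 2 were lower, Cited1 and Plet1. Apoa1 and Amn were under 1 FPKM in all 6 libraries. None of 10 germline genes was called by limma, and 2 had an unadjusted p under 0.05; Hormad1 stood at −1.02 and was called lower without day 5 replicate 3.

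Pluripotency genes, general and naive, were called in both directions. Among 14 general pluripotency genes 6 were higher in EpiSC and 2 lower (median 0.38). Nanog was at 105, 160 and 101 FPKM in EpiSC and at 45.5, 40.4 and 19.8 FPKM on day 5, without overlap (1.81, SE 0.33, limma, adjusted p = 7.68e-05). Sox2 was at 74.3, 84.4 and 81.4 FPKM in EpiSC and 31.4, 30.2 and 33.2 FPKM on day 5, the tightest pair of groups among these genes (1.31, limma, adjusted p = 2.84e-07). Pou5f1 (Oct4) was at 938, 770 and 455 FPKM in EpiSC and 261, 444 and 262 FPKM on day 5. Its lowest EpiSC library, replicate 3, lay just above the highest day 5 library, and the difference of 1.14 (limma, adjusted p = 0.00563) fell to 0.92 without EpiSC replicate 1, below the call. With only the libraries of the other project, to which day 5 replicate 1 does not belong, Pou5f1 had an adjusted p of 0.109 (limma). Utf1 and Gdf3, a chromatin factor and a Nodal related ligand, were higher by 2.19 and 2.13. Dppa4 and Dppa2, partners in early chromatin, went the other way: Dppa4 was at 0.122, 0.127 and 0.444 FPKM in EpiSC and 15.8, 10.8 and 10.4 FPKM on day 5 (−3.42, limma, adjusted p = 3.61e-13), and Dppa2 differed by −1.83.

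Naive genes were lower in 7 of 14 and higher in 2 (median −1.16). Zfp42 (Rex1) was at 0.546, 0.188 and 0.686 FPKM in EpiSC and 18.4, 9.14 and 8.24 FPKM on day 5 (−3.06, limma, adjusted p = 6.2e-09), and Dppa5a, Dppa3 and Tcl1 differed by −5.65, −2.58 and −1.94. In all 4 the day 5 level was itself far under that of day 0, where Zfp42 averaged 364 ± 66.7 FPKM (SD, n = 3). Nr5a2, an orphan nuclear receptor counted here as naive, was the reverse. It was at 15.9, 28.7 and 37 FPKM in EpiSC and 0.979, 0.417 and 0.363 FPKM on day 5 (4.10, SE 0.21, limma, adjusted p = 1.92e-14); its mean was 23.1 ± 1.79 FPKM on day 0 (SD, n = 3) and under 1 FPKM from day 2 to day 7. Klf4, at 4.47, 5.5 and 1.46 FPKM in EpiSC, was called higher (1.27) but not after the feeder share was taken off (0.42), and without EpiSC replicate 2 it fell just short of the call. Dppa5a and Tcl1 were at least 10 times higher in each CBMS1 library than in any EpiSC or MEF library. For both, strain and group cannot be told apart, as described at the end.

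Genes of the formative and primed epiblast went both ways, 4 of 14 higher and 5 lower (median −0.24). Otx2, the homeobox factor of the primed epiblast and forebrain, was at 64.6, 106 and 131 FPKM in EpiSC and 19.5, 30.2 and 17.8 FPKM on day 5 (2.09, SE 0.32, limma, adjusted p = 8.5e-06), and MEF libraries were listed at 0. The EpiSC mean of 101 ± 33.6 FPKM (SD, n = 3) compared with 72.7 ± 6.74 FPKM on day 3, the highest of the course (SD, n = 3). Zic2 and Zic5, zinc finger factors of epiblast and neural plate, were higher by 1.22 and 1.45. Foxd3 was called higher at 38.7, 10.5 and 2.05 FPKM in EpiSC, but replicate 3 equalled day 5 replicate 1. Its difference of 1.94 was 1.03 without EpiSC replicate 1 and 2.88 without EpiSC replicate 3, and it was not called when only the 2 groups entered the model (limma, adjusted p = 0.144). Fgf5, the classical primed epiblast ligand, was at 59.6, 19.4 and 15.5 FPKM in EpiSC and 24.8, 47.4 and 24.1 FPKM on day 5, with overlapping groups (−0.20, limma, adjusted p = 0.686). Dnmt3b, the de novo methyltransferase, averaged 101 ± 22.7 against 84 ± 14.1 FPKM (SD, n = 3 each) and was not called. Pou3f1 (Oct6) and Cldn6 differed by −1.30 and −1.69. Without EpiSC replicate 1, 3 of the 14 were called lower.

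Lefty1, Lefty2 and Tdgf1 led the Nodal pathway, in which a ligand (Nodal) and its co-receptors (Tdgf1, Cfc1) drive SMAD2/3 and the targets Lefty1 and Lefty2 antagonise the ligand. Of 17 genes tested 5 were higher, 3 lower and 9 not called (median 0.49). Lefty1 was at 559, 651 and 53.2 FPKM in EpiSC and 35.4, 35.8 and 25.7 FPKM on day 5. The groups did not overlap, but EpiSC replicate 3 held a small part of what the other EpiSC libraries held (3.04, SE 0.53, limma, adjusted p = 4.34e-05). Without that library the difference was 4.20, and without EpiSC replicate 2 it was 2.40. Lefty2 showed the same order, at 298, 255 and 51.2 FPKM in EpiSC and 29.3, 16 and 11.8 FPKM on day 5 (3.08, limma, adjusted p = 1.32e-06), and differed by 3.88 without EpiSC replicate 3. Tdgf1 (Cripto) was at 635, 570 and 370 FPKM in EpiSC and 115, 128 and 55.6 FPKM on day 5 (2.44, limma, adjusted p = 2.86e-07), and Smad7, an inhibitory SMAD, was higher by 2.28.

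Nodal itself was at 54.6, 44.7 and 10.4 FPKM in EpiSC and 14.6, 18.1 and 15.4 FPKM on day 5: replicates 1 and 2 lay above day 5, and replicate 3 below it (0.86, limma, adjusted p = 0.0497, under the minimum difference). Without EpiSC replicate 3 Nodal differed by 1.57 and was called higher (limma, adjusted p = 1e-05). Inhba, which encodes the Activin A subunit, was higher at 4.1, 2.44 and 4.4 FPKM against at most 0.0881 FPKM on day 5, with a MEF mean of 17 FPKM. The 3 lower members were Cfc1, Fst and Cer1. Cfc1 (Cryptic), the co-receptor of node and lateral plate, was at 1.3, 1.96 and 0.478 FPKM in EpiSC and 34.9, 67.2 and 56.6 FPKM on day 5 (−4.59, limma, adjusted p = 3.36e-12). Fst, which binds Activin, was at 9.46, 6.3 and 6.22 FPKM in EpiSC and 114, 124 and 110 FPKM on day 5 (−3.83, SE 0.26, limma, adjusted p = 6.83e-12). Cer1 is given with the endoderm. The other 9 tested members, receptors and SMADs among them, were not called; Foxh1, the DNA-binding partner of SMAD2/3, averaged 57.6 ± 1.45 FPKM in EpiSC and 63.2 ± 6.1 FPKM on day 5 (SD, n = 3 each).

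**Figure D3:**
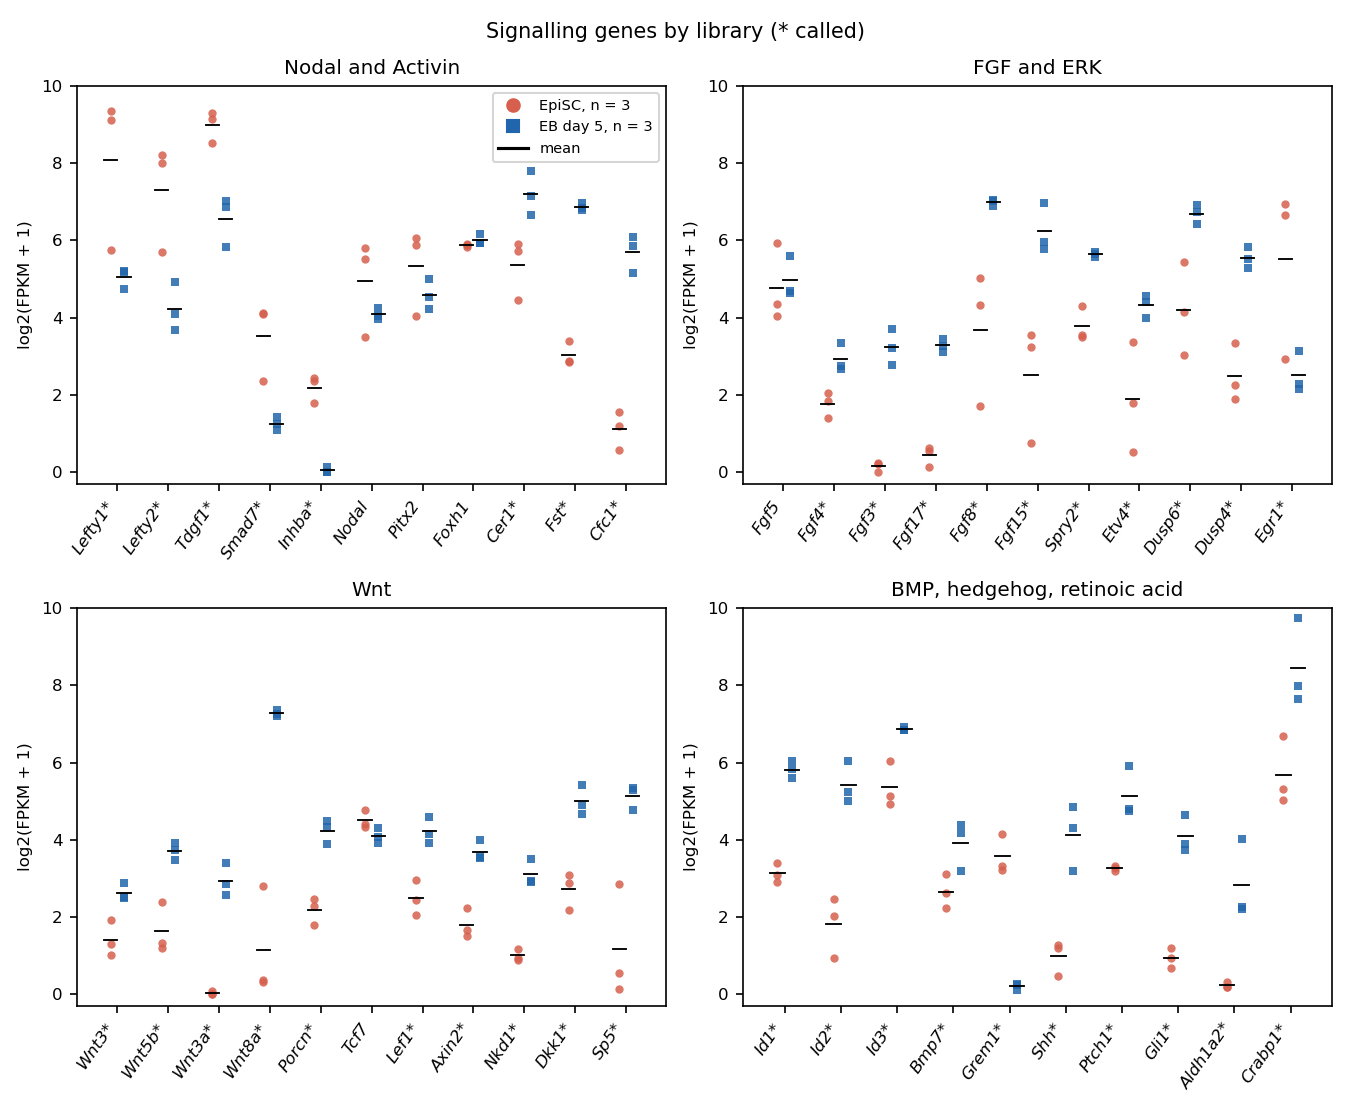
Levels of 43 signalling genes in each library as log2(FPKM + 1), EpiSC in red circles, day 5 in blue squares, bars at the means of 3 libraries, and an asterisk for a called gene. Lefty1, Lefty2, Tdgf1, Smad7, Inhba, Grem1 and Egr1 are called higher in EpiSC, and nearly all FGF, Wnt, BMP, hedgehog and retinoic acid genes shown are called lower; EpiSC replicate 3 is the low red point in Lefty1, Nodal, Fgf8 and Egr1.

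Of 13 tested FGF ligand and receptor genes 6, all ligands, were lower and none was higher (median −0.70; 1 was higher without EpiSC replicate 1), and the EpiSC medium contained FGF. Fgf15 was at 10.8, 8.43 and 0.7 FPKM in EpiSC and 125, 54.1 and 61.7 FPKM on day 5, with EpiSC replicate 3 again lowest (−3.73, limma, adjusted p = 1.93e-07) and a difference of −2.85 without it. Fgf3, Fgf17 and Fgf10, ligands of streak and trunk, differed by −3.08, −2.85 and −1.53. The receptors were not called; Fgfr1, the main receptor of the epiblast, averaged 47.3 ± 3.69 FPKM in EpiSC and 32.6 ± 7.17 FPKM on day 5 (SD, n = 3 each). Of 12 genes of the ERK feedback list, transcribed in answer to FGF, 7 were lower and 1 higher (median −1.17). Dusp6, an ERK phosphatase, was at 42.5, 16.6 and 7.14 FPKM in EpiSC and 120, 106 and 84.5 FPKM on day 5 (−2.49, limma, adjusted p = 6.22e-07). Without EpiSC replicates 1 or 3 the differences were −3.11 or −1.90 for Dusp6 and −3.16 or −1.74 for Etv4. Dusp4, Etv4 and Spry2 differed by −3.06, −2.43 and −1.85. The higher one was Egr1, an immediate early factor, at 99.9, 121 and 6.64 FPKM in EpiSC and 3.45, 3.89 and 7.76 FPKM on day 5, where EpiSC replicate 3 fell inside the day 5 range (2.98, limma, adjusted p = 0.00283). The difference was 4.27 without that library, 2.27 without EpiSC replicate 2, and not called when only the 2 groups entered the model (limma, adjusted p = 0.0738).

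Immediate early genes rose in 5 of 8 tested, and none fell (median 1.88). Fos was at 59.3, 126 and 4.42 FPKM in EpiSC and 2, 1.57 and 2.27 FPKM on day 5 (3.56, SE 0.76, limma, adjusted p = 0.000444). Fosb, Jun and Junb were higher by 2.83, 2.10 and 1.65, each lowest in EpiSC replicate 3. Without that library Fos and Fosb differed by 4.90 and 3.86, and without EpiSC replicate 2 Fos, Fosb and Jun differed by 2.62, 2.07 and 1.43. When only the 2 groups entered the model, 3 of the 8 were called higher, and Fos was not among them (limma, adjusted p = 0.0504). EpiSC replicate 3, the low library, shares its passage with replicate 1 and differs from both others in the number that ends its title; the part of either in these levels was not tested.

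Wnt ligands and Wnt targets were lower together. Wnt8a, a ligand of the streak, was at 5.95, 0.237 and 0.29 FPKM in EpiSC and 148, 151 and 164 FPKM on day 5, with EpiSC replicate 1 above the other EpiSC libraries (−6.12, SE 0.42, limma, adjusted p = 1.02e-11). Of 11 Wnt ligand and secretion genes tested 6 were lower and none higher (median −1.09), among them Wnt3a at −2.91, Wnt5b at −2.07 and Porcn, the enzyme that acylates Wnt ligands, at −2.06. Of 13 targets and feedback genes 9 were lower and none higher (median −1.81). Sp5, a direct target whose promoter is printed above, was at 6.24, 0.458 and 0.0924 FPKM in EpiSC and 26.3, 37.8 and 39.4 FPKM on day 5 (−3.95, limma, adjusted p = 3.16e-08). Without EpiSC replicate 1 the differences were −6.94 for Wnt8a and −4.79 for Sp5. Axin2, the standard feedback target, was at 3.69, 2.19 and 1.83 FPKM in EpiSC and 10.5, 10.8 and 15 FPKM on day 5 (−1.89, limma, adjusted p = 1.6e-08). Dkk1, Nkd1 and Notum, feedback inhibitors, differed by −2.28, −2.11 and −2.03. Tcf7, a DNA-binding partner of beta-catenin, was not called, at 20.1, 19.2 and 26.5 FPKM in EpiSC against 14.2, 15.7 and 18.7 FPKM on day 5.

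BMP genes were lower in 7 of 13 and higher in 2 (median −1.27). The targets Id2, Id1 and Id3, inhibitors of bHLH factors, differed by −3.62, −2.69 and −1.50; Id1 was at 9.58, 7.49 and 6.46 FPKM in EpiSC and 65, 55.7 and 47.3 FPKM on day 5, with no overlap (limma, adjusted p = 4.85e-10). The higher ones were antagonists, but so were Nog and Chrd, which were called lower and are given with the node. Bambi, a pseudoreceptor, was higher by 1.27. Grem1, which binds BMP ligands, was at 16.9, 8.97 and 8.39 FPKM in EpiSC and at most 0.202 FPKM on day 5, and its MEF mean was 46.9 ± 18.6 FPKM (SD, n = 6). Its difference was 3.36, and 3.20 after the feeder share was taken off.

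Hedgehog genes were lower in 4 of 11 and none was higher. Gli1, the transcriptional readout of hedgehog, was at 1.3, 0.925 and 0.6 FPKM in EpiSC and 13.8, 12.3 and 24.1 FPKM on day 5 (−3.15, limma, adjusted p = 4.31e-12), and Ptch1, receptor and target, differed by −1.89. In the retinoic acid list 5 of 14 were lower and 1 higher: the binding proteins Crabp2 and Crabp1 differed by −3.08 and −2.77, the synthesising enzyme Aldh1a2 by −2.60, and Rbp4 was higher by 1.46. The Crabp1 difference was −2.13 without day 5 replicate 1, that of Crabp2 −2.40 without EpiSC replicate 1 and −3.76 without EpiSC replicate 3, and that of Aldh1a2 −2.01 without day 5 replicate 3; with EpiSC replicate 3 left out 2 genes of this list were called higher. Notch genes were lower in 4 of 13, Dll1, Dll3, Lfng and Nrarp, and higher in 2. Notch3 was at 43.2, 89.1 and 36.4 FPKM in EpiSC and 6.3, 4.82 and 9.84 FPKM on day 5 (2.78, limma, adjusted p = 5.48e-09), and the ligand Jag2 was higher by 1.41.

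**Figure D4:**
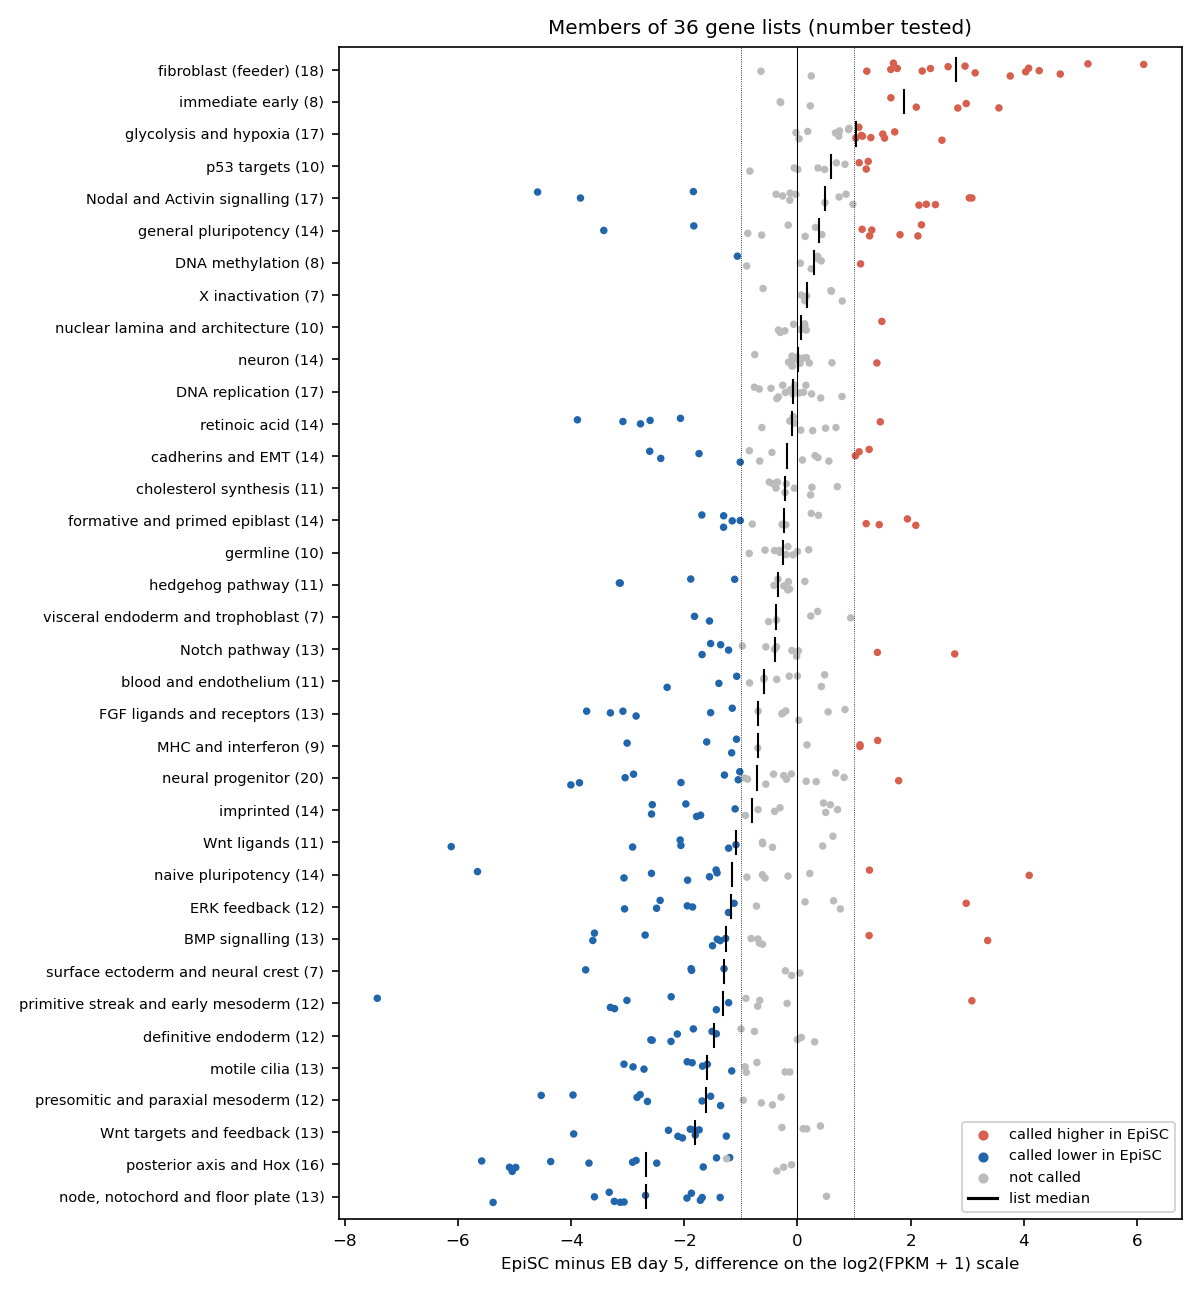
Differences of the tested members of 36 gene lists, EpiSC minus day 5 on the log2(FPKM + 1) scale, red for genes called higher in EpiSC, blue for lower, grey for not called, with a bar at each list's median. Node, posterior, Wnt target, presomitic and cilia lists lie at the left, and fibroblast, immediate early and glycolysis lists at the right.

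Epithelial keratins and both classical cadherins were lower in EpiSC. Krt8 was at 32.9, 41.8 and 33.7 FPKM in EpiSC and 384, 562 and 555 FPKM on day 5 (−3.74, SE 0.28, limma, adjusted p = 3.09e-11), and its partner Krt18 differed by −1.88. Cdh1 (E-cadherin) was at 34.4, 28.2 and 41.9 FPKM in EpiSC and 86.8, 125 and 148 FPKM on day 5 (−1.74, limma, adjusted p = 3.22e-07), with the lowest mean of the course at 47.4 ± 8.8 FPKM on day 7 (SD, n = 5). Cdh2 (N-cadherin) was at 11.2, 8.92 and 4.84 FPKM in EpiSC and 41.3, 45.1 and 54 FPKM on day 5 (−2.42, limma, adjusted p = 2e-10). Esrp1, an epithelial splicing factor, differed by −2.61, and Zeb1, a mesenchymal repressor, was higher by 1.27 and by 1.21 after the feeder share was taken off. Of 14 cadherin and transition genes 4 were lower and 3 higher (median −0.18).

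Hypoxia and glycolysis genes rose in 9 of 17 tested, and none fell (median 1.03). The number higher was 6 without EpiSC replicate 2 and 11 without EpiSC replicate 1. It was 7 with only the libraries of the project without day 5 replicate 1. Bnip3, a mitophagy receptor induced by HIF1, was at 128, 245 and 117 FPKM in EpiSC and 23.1, 26.9 and 26.3 FPKM on day 5 (2.55, SE 0.42, limma, adjusted p = 2e-05). Pgk1, a glycolytic kinase on the X chromosome, was at 902, 1490 and 1320 FPKM in EpiSC and 430, 447 and 401 FPKM on day 5 (1.51, limma, adjusted p = 0.000639). Slc16a3, the lactate exporter, Hk1 and Pdk1 were higher by 1.72, 1.54 and 1.30. Cpt1a, the entry enzyme of fatty acid oxidation picked out after its values were seen, was at 24.9, 28 and 28 FPKM in EpiSC and at most 0.579 FPKM on day 5 (4.25, limma, adjusted p = 1.13e-17). Its means were 31.9 ± 3.75 FPKM on day 0 (SD, n = 3) and 26 ± 2.21 FPKM in MEF (SD, n = 6). None of 11 cholesterol synthesis genes was called by limma, and 5 had an unadjusted p under 0.05.

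Imprinted genes were called lower in 6 of 14 and none was higher (Peg3 was called higher without EpiSC replicate 1): Nnat, Peg10, Mest, Rian, Impact and Zdbf2 differed by −2.58 to −1.10. Nnat was at 32.9, 31.9 and 42.5 FPKM in EpiSC and 245, 205 and 203 FPKM on day 5. Of 8 DNA methylation genes Tet1 was higher by 1.12, and Dnmt3l was called lower with overlapping libraries (−1.06), a call lost when any one of EpiSC replicates 1 and 2 or day 5 replicates 1 and 2 was left out (−0.97, −0.86, −0.92 and −0.94). Targets of p53 were higher in 3 of 10, Zmat3, Phlda3 and Trp53inp1, and 1 was called lower without EpiSC replicate 1 or without day 5 replicate 1. Of the 3 higher, the last fell from a difference of 1.09 to 0.70 without EpiSC replicate 3, below the call. Zdbf2 stood at −0.98 without day 5 replicate 3. Antigen presentation and interferon genes were called in both directions: H2-K1, Tap1 and B2m were higher by 1.11, 1.10 and 1.42, while Isg15, Ifit1, Psmb9 and Psmb8 differed by −3.01 to −1.08. Without day 5 replicate 1 the last pair stood at −0.90 and −0.79 and were not called, Psmb8 stood at −0.92 without EpiSC replicate 3, and Tap1 at 0.97 without day 5 replicate 2. B2m had a MEF mean at least 10 times that of any day of the course. Its difference was 1.11 after the feeder share was taken off and 0.65 after 2 times the share. Of 17 DNA replication genes none was called by limma, and 7 had an unadjusted p under 0.05; without EpiSC replicate 1 1 of them, Ccne2, was called lower at −1.13. Rif1, a replication timing and telomere factor in that list, was at 50.2, 51.2 and 64.5 FPKM in EpiSC and 35.7, 31.8 and 27.4 FPKM on day 5, apart but under the minimum difference (0.79, limma, adjusted p = 0.00021). Among 10 genes of lamina and genome architecture Lmna alone was called, and Ctcf differed by 0.13 (limma, adjusted p = 0.365).

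Both lines are female. Xist, which silences the X chromosome it covers, was at 52.2, 52.3 and 76.7 FPKM in EpiSC and 32.8, 39.8 and 45.6 FPKM on day 5, not overlapping but under the minimum difference (0.59, limma, adjusted p = 0.0256). Tsix, its antisense transcript, was at or under 1.23 FPKM in all 6 libraries and was not called; reads of the overlapping pair can be told apart only if counting used strand. None of 7 X inactivation genes was called by limma, 4 had an unadjusted p under 0.05, and without EpiSC replicate 1 Jpx passed at 1.003. The ratio of median X-linked to median autosomal FPKM, over 386 and 10733 genes, was 0.93, 0.942 and 0.903 in EpiSC and 1.15, 1.07 and 0.903 on day 5. The means of 0.925 ± 0.0201 and 1.04 ± 0.127 (SD, n = 3 each) differed by less than the day 5 SD; an exact two-sided permutation test gave p = 0.3, and with 3 libraries against 3 it cannot go below 0.1, so no call was possible. Of 532 X-linked genes tested 4.7% were higher and 8.83% lower, against 6.45% and 7.3% of all genes.

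Feeder RNA was visible in every EpiSC library. Its share was estimated as the median, over 38 genes with at least 50 FPKM in MEF and no CBMS1 library above 1% of the MEF mean, of the EpiSC level divided by the MEF mean. The share was 4.57% in EpiSC replicate 1, 2.98% in replicate 2 and 2.9% in replicate 3, a mean of 3.48%. The single genes spread widely around it, with quartiles of 1.96% and 8.96% in replicate 1, and 9 stricter marker genes gave a mean of 2.67%. Transcripts of the Y chromosome gave a second view, since both lines are female: Ddx3y was at 1.56, 0.513 and 0.808 FPKM and Eif2s3y at 1.1, 1.05 and 1.2 FPKM in EpiSC, and both were 0 in the day 5 libraries. As a share of MEF culture 2, whose means were 29.4 and 30.4 FPKM, Ddx3y gave 5.3%, 1.74% and 2.75% and Eif2s3y 3.63%, 3.44% and 3.96%. MEF culture 1 had almost none, and the sex of the feeders is not known, so these are not estimates of the share itself.

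Of 18 fibroblast genes 16 were called higher in EpiSC, none lower (median 2.81). Col1a1, a chain of type I collagen, was at 123, 67.9 and 106 FPKM in EpiSC and 7.51, 3.89 and 7.83 FPKM on day 5 (3.76, limma, adjusted p = 5.31e-11), which was a few percent of its MEF mean of 4170 ± 506 FPKM (SD, n = 6). After subtraction of the feeder share Col1a1 stood at −2.84 and Col1a2 at −1.73, both called lower: the share times the MEF mean exceeded their EpiSC level in each library. Of the 18, 6 were called higher and 6 lower after subtraction (median 0.48). Over all genes the subtraction left 795 higher (5.67%) and 1141 lower (8.14%), and 2 times the share left 718 higher and 1284 lower. Of the 904 genes called higher, 770 were called higher with and without it and 134 only as deposited, Lmna among the latter; of the 1022 lower, 1007 were called in both.

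The 12 genes furthest above day 5 were ranked by the difference as deposited and were also called higher after subtraction. Some had EpiSC levels of a few percent of the MEF mean and others far more. Col3a1 was at 119, 72.6 and 76.6 FPKM in EpiSC, at most 0.508 FPKM on day 5 and 1730 ± 454 FPKM in MEF (SD, n = 6), with a difference of 6.12, or 4.57 after subtraction. Its EpiSC mean was 5.16% of the MEF mean, that of Bgn 3.76% and that of S100a4 5.6%. Tnc and Igfbp7, both for secreted proteins, stood higher at 11.7% and 10.9%, and differed by 4.51 and 4.34 as deposited and by 4.04 and 3.85 after subtraction. Bgn and S100a4 changed more with subtraction, from 6.07 and 6.095 to 2.14 and 3.95. Cd59a, a complement regulator on the cell surface, was instead at 90.9, 106 and 143 FPKM in EpiSC, 2.29, 2.1 and 1.72 FPKM on day 5 and 6.88 ± 1.53 FPKM in MEF (5.21, SE 0.18, limma, adjusted p = 1.23e-17). Tnnt1, a troponin, was at 22.2, 66.3 and 169 FPKM and Chst1, a sulfotransferase, at 29, 90.3 and 144 FPKM in EpiSC, with MEF means of 0.618 and 2.36 FPKM and day 5 levels under 2 FPKM; both were lowest in EpiSC replicate 1. Without that library they differed by 5.58 and 5.48, and Tnnt1 by 4.14 without EpiSC replicate 3, where all libraries gave 4.84 and 4.83. Spp1 (osteopontin) was at 396, 454 and 401 FPKM in EpiSC, 18.7, 13.4 and 9.33 FPKM on day 5, 580 ± 14.1 FPKM on day 0 (SD, n = 3) and 179 ± 73.8 FPKM in MEF (SD, n = 6), a difference of 4.87 (limma, adjusted p = 1.82e-13). Gm11127, which by its name is a predicted gene, differed by 4.34 with a MEF mean of 0.0998 FPKM.

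Some genes for secreted proteins that fibroblasts are known to make lay above the level a few percent of MEF RNA would give. Mmp3, a matrix protease, was at 51.6, 33.1 and 23.2 FPKM in EpiSC and 5.27 ± 1.67 FPKM in MEF (SD, n = 6), and was listed at 0 in all 25 CBMS1 libraries. The chemokines Ccl2 and, picked out after their values were seen, Ccl7 and Cxcl1 had EpiSC means of 25.8, 18.2 and 11.9 FPKM against MEF means of 49.3, 49.4 and 8.14 FPKM. Fgf7, Ctgf and Enpp3 were also picked out after their values were seen. Fgf7, a fibroblast ligand, was at 4.38, 3.85 and 3.57 FPKM in EpiSC, at most 0.107 FPKM on day 5 and 32.1 FPKM on average in MEF. Ctgf, a YAP target, was at 60.9, 96.6 and 134 FPKM in EpiSC, 5.75, 4.1 and 4.07 FPKM on day 5 and 226 ± 23 FPKM in MEF (4.06). Enpp3, an ectonucleotidase, is not meant among the fibroblast genes above, and its MEF mean lay below each day 5 library. It was at 182, 148 and 211 FPKM in EpiSC, 17.1, 16.7 and 11.4 FPKM on day 5 and 3.27 ± 0.939 FPKM in MEF (3.50, limma, adjusted p = 4.63e-15). Whether the feeders themselves held more Mmp3 or chemokine RNA than these MEF cultures was not tested.

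**Figure D5:**
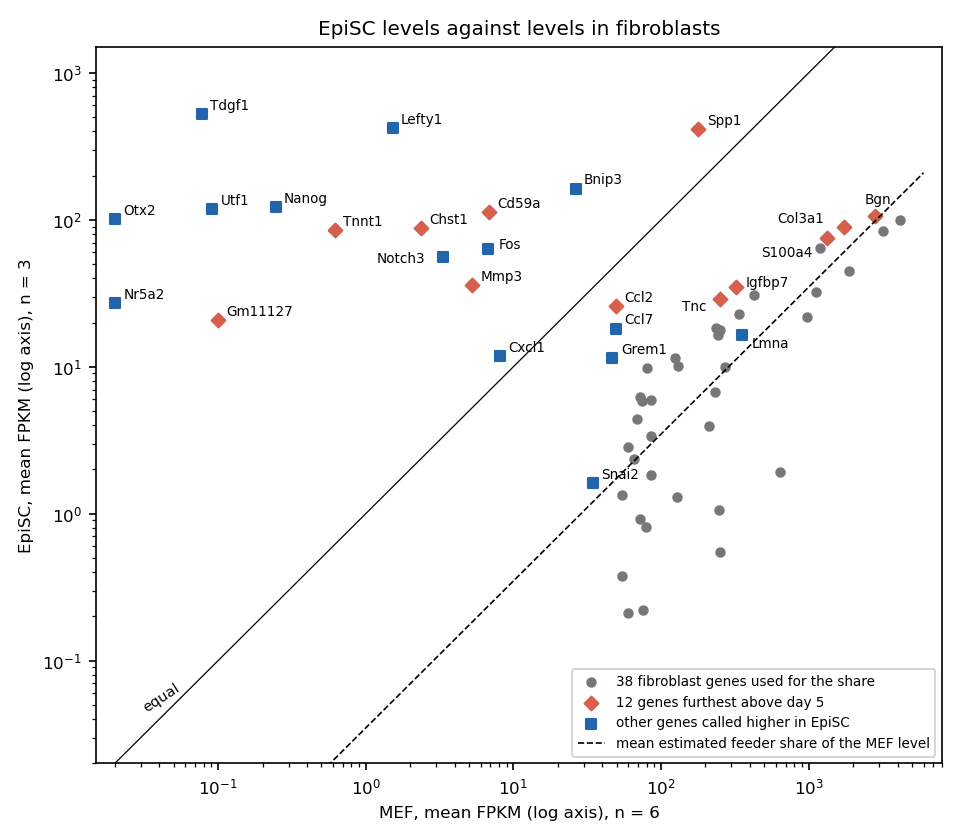
EpiSC mean FPKM (n = 3) against MEF mean FPKM (n = 6) on log axes for the 38 genes behind the feeder share (grey), the 12 genes furthest above day 5 (red diamonds) and other genes called higher in EpiSC (blue squares); the dashed line is the mean share of 3.48% and the solid line equality, and MEF means under 0.02 FPKM (Otx2, Nr5a2) are drawn at 0.02. Col3a1, Bgn and S100a4 lie close to the dashed line, while Cd59a, Spp1, Mmp3, Lefty1 and Nanog lie above equality.

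EpiSC were compared with the other days of the course by the same model, and these comparisons share the EpiSC libraries. The number of genes called was 3608 (25.8%) against day 0, 2762 (19.7%) against day 2, 2728 (19.5%) against day 3, 1906 (13.6%) against day 4, 1926 (13.7%) against day 5, 2064 (14.7%) against day 6 and 2446 (17.5%) against day 7. Of the 904 genes higher than on day 5, 377 (41.7%) lay above all 25 CBMS1 libraries in every EpiSC library, and 304 of 795 (38.2%) did after subtraction of the feeder share. Of the 1022 lower, 184 (18%) lay below all 25, and 239 of 1141 (20.9%) after subtraction. Day 5 was the day of the highest mean for 423 of the 1022 (41.4%) and for 9.77% of all genes tested; the choice of day 5 as reference enters the 41.4%.

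Levels at least 10 times higher in each CBMS1 library than in any EpiSC or MEF library were seen in 9 genes, a pattern picked out after the values were seen: Gm6251, Gm6654, Rpl14-ps1, Npm3-ps1, Tcl1, Rbmxl2, Uchl4, Dppa5a and Rhox6. EpiSC and MEF are both C57BL6 and CBMS1 is not, so strain and group cannot be told apart here. Gm6251 averaged 0.462 FPKM in EpiSC, 143 FPKM on day 5 and 0.593 FPKM in MEF. Gm6654 and Rpl14-ps1 were at 1.1 and 0.967 FPKM in EpiSC against 189 and 140 FPKM on day 5, and Rps4l, which was present in MEF at 81.2 FPKM, fell by 6.11. Entries named as pseudogenes or copies can share reads with their parent genes, and their levels are uncertain.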

How the data were processed

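Polyadenylated RNA was sequenced after total RNA extraction with TRI Reagent and TruSeq Stranded mRNA library preparation, per the labels' protocols. The authors deposited 1 table of FPKM values per gene for all libraries. Per the submitters' processing notes it involved cutadapt 1.4.1, HISAT2 2.0.4, Cufflinks 2.2.1, Cuffdiff and mm9. FPKM are not counts and library totals are not given, so no counting interval could be computed. Steps between low values (at or under 0.15 FPKM, tolerance 0.04 on the log2 scale) gave relative depths of 0.914 to 1.12, with 48.1% to 61.2% of low values in step. The number of libraries limits precision.

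Groups were taken from titles and source names. In 9 of 25 course libraries the cell type field names another day, 1 of them at day 5. Genes that reached 1 FPKM in 3 or more of 28 libraries (all but MEF) were kept, log2(FPKM + 1) was fitted in limma 3.58.1 (R 4.3.3) over 8 groups without covariates, and the EpiSC minus day 5 contrast was adjusted by Benjamini-Hochberg over all genes. The fit was tested on simulated data. The feeder share was subtracted as (EpiSC − share × MEF mean)/(1 − share), with values under 0 set to 0. Of 464 genes in 36 lists, 427 were tested, 22 were below the filter, 11 stood only in entries of several symbols, 1 had more than 1 entry and 3 had none. Members and lists were chosen with earlier results of these data known. Apart from genes not reported here, the text names the 12 largest differences in each direction (called, groups not overlapping, higher mean at least 10 FPKM, 1 symbol, span at least 200 bases, and for higher genes called also after subtraction), the leading members of each list and some genes of known interest. Any other gene is said to be picked out after its values were seen. Pseudocount, filters, normalization, the libraries in the fit, project, replicate block, feeder subtraction and single libraries left out were varied. RefSeq promoters are on GRCm38.p6 and were not mixed with mm9 coordinates.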

Additional observations from a re-analysis of the deposited data

How the results depend on the processing

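The number of genes called, 1926 (904 higher and 1022 lower in EpiSC, 46.9% higher), stayed within 1.5 times under all alternatives run except the one with no minimum difference, which gave 6243 (3015 higher and 3228 lower). A pseudocount of 0.25 FPKM gave 2794 (1236 higher and 1558 lower), where the lower calls alone passed 1.5 times. Leaving out each library in turn gave 1779 to 2278 calls (770 to 1129 higher, 988 to 1149 lower). Taking 2 times the feeder share off gave 718 higher and 1284 lower, so that 35.9% of the calls were higher. The libraries of the project without day 5 replicate 1 gave 1919 calls, 1742 of them shared. Same-numbered EpiSC and day 5 libraries had deviations correlated at −0.0081, −0.0609 and 0.159, so the numbers were not taken to pair the samples. With the replicate block on the 2 groups 1746 genes were called, 845 higher and 901 lower, against 1818 without it; 1 immediate early gene was then called higher and 4 ERK feedback genes lower. Some genes changed direction: with the feeder share off Col1a1 stood at −2.84, Col1a2 at −1.73 and Lmna at −0.27, and with 2 times the share off Col1a1 at −2.84, Col1a2 at −1.73, Lmna at −2.61, Bgn at −0.65, Col3a1 at −0.34 and Klf4 at −0.30. Beyond the subtraction itself the cause was not tested. With 2 times the share off B2m (0.65), S100a4 (0.47) and Phlda3 (0.99) were no longer called. Fgf5, not called, ranged from −0.78 to 0.16 with single libraries left out. Chrd was not called when only the 2 groups entered the model (adjusted p = 0.0634, limma), nor was Kdr after quantile normalization (−0.95); these causes were not tested. The X to autosome ratio stayed lower on average in EpiSC with each library left out. Depth is known only in relative terms, so small differences of genes near 1 FPKM are uncertain.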
